A study of Mus musculus with 2 samples.

Results

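The 7 genes described here are the 5 members of the Ikaros family, Ikzf1 (Ikaros), Ikzf2 (Helios), Ikzf3 (Aiolos), Ikzf4 (Eos) and Ikzf5 (Pegasus), and the pair Bcl11a and Bcl11b. They were chosen by symbol, matched to their Ensembl identifiers, and are 7 of the 37820 genes in the gene table. All 7 were found in both deposited tables. Per the annotation, Ikzf1, Ikzf3 and Bcl11a lie on chromosome 11, Ikzf2 on 1, Ikzf4 on 10, Ikzf5 on 7 and Bcl11b on 12. Their transcripts number 43 in the annotation used, of which 26 were listed in the transcript table. The samples come from a study of genome organisation in haematopoietic stem cells (HSCs), which maintain every blood lineage, before and after birth. The adult group consists of HSCs from the bone marrow (BM) of B6129SF1 mice aged 6 to 8 weeks and has 2 samples. The fetal values are the columns headed FL, read as HSCs from the liver at embryonic stage E14.5 from the header and the labels' protocol, since no sample label used here names them. Polyadenylated RNA of sorted cells was sequenced. How the cells were gated, and how many animals were pooled, the labels do not say. No genotype or treatment other than the strain is given, and the protocol does not give the strain of the fetuses.

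Ikaros family and Bcl11 proteins are zinc finger transcription factors. The amino-terminal fingers of an Ikaros protein bind DNA and the carboxy-terminal pair joins it to other family members, so isoforms that lack DNA-binding fingers can still form dimers. Both groups recruit corepressor complexes, above all the nucleosome remodelling and deacetylase complex NuRD, and Bcl11 proteins are also subunits of the BAF chromatin remodeller. In blood, Ikzf1 is required for lymphoid development and is already active in stem and progenitor cells, Bcl11a is required for B cells and for the silencing of embryonic globin genes in mouse, and Bcl11b sets T cell commitment.

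A zinc finger of each gene is shown first because this is the module that the 7 have in common and because similar sequences could exchange reads. The second match to the C2H2 zinc finger pattern in the longest listed coding sequence of each gene is printed below, 5′ to 3′ on the coding strand, from GENCODE M21 transcripts, with the paired cysteine and histidine codons in capitals.
Ikzf1-203: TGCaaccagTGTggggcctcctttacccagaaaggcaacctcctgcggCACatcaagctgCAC
Ikzf2-201: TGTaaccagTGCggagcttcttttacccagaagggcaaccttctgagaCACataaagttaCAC
Ikzf3-201: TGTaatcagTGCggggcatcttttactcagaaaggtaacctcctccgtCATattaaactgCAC
Ikzf4-201: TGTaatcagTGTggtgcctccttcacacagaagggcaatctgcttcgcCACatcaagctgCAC
Ikzf5-201: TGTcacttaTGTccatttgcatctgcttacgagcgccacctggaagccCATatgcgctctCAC
Bcl11a-202: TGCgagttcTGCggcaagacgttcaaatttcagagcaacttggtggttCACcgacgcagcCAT
Bcl11b-201: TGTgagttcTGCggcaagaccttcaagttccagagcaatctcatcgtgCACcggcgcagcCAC
Over these 63 bases Ikzf1 shared 84.1% with Ikzf4 and 81.0% with both Ikzf2 and Ikzf3, but 41.3% with Ikzf5. Bcl11a and Bcl11b shared 81.0% with each other. The pattern was read in frame and was present in 2.87% of 59456 annotated coding sequences. It matched 6 times in the longest listed forms of Ikzf1, Ikzf2, Ikzf4, Bcl11a and Bcl11b, and 5 times in those of Ikzf3 and Ikzf5. No window of 75 bases, the shorter read length named in the protocol, was shared between any pair of the 7 genes. Windows shared with genes outside the group were 0 for Ikzf1, Ikzf3 and Bcl11b and at most 1.30% for Ikzf2, Ikzf4 and Bcl11a. For Ikzf5 they were 79.7%, mostly with an annotated transcript of Pstk on the opposite strand (76.8%) and with the gene copy Gm10356 (10.7%). In the gene table Pstk was at 39.0 FPKM in BM and 25.1 FPKM in FL, and Gm10356 was listed at 0 in BM and at 0.00550 FPKM in FL. The kit named in the protocol does not mark strand, so reads from Ikzf5 and Pstk cannot be told apart over that stretch.

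Levels are the authors' FPKM, fragments scaled by feature length and library total, with 1 value per stage in each table. No replicate values are given, so no difference below could be compared with the spread between libraries and no test was possible; "higher" and "lower" describe these columns alone. The depth is unknown. The headers of the 2 tables are in conflict: over 11077 genes at 1 FPKM or more, the BM column of the gene table was 1.05 times the FL sum of the transcript table (quartiles 1.04 and 1.08), and 79.2% of them lay within 10% of that ratio. Which header is wrong cannot be told from the files. Values are therefore given by table and header, and the transcript table, summed per gene, is used for the comparison of adult with fetal HSCs. HSC markers were present in it: the 10 markers fixed for HSCs were all at 1 FPKM or more, with Kit, the stem cell factor receptor gene, at 181 FPKM in BM and 112 FPKM in FL. Macrophage markers summed to 6.98 FPKM in BM and 249 FPKM in FL, neutrophil and monocyte markers to 208 FPKM in BM and 632 FPKM in FL, and megakaryocyte markers to 791 FPKM in BM and 135 FPKM in FL.

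Adult and fetal columns were compared for the 7 genes to ask which of these factors mark either stage. In the transcript table Bcl11a was the most abundant in BM and Ikzf1 in FL, and Ikzf3 and Bcl11b lay far under 1 FPKM in both columns. Expressed means a level of at least 1 FPKM in BM or in FL, which held for 5 of the 7. A relative log2 ratio was taken as BM over FL after adding 0.1 FPKM to each, minus its median (0.01) over the genes that reached 1 FPKM in each. For ratios within the gene table the median taken off was 0.24. The ratio understates the differences of low genes. At a ratio of 2-fold or more, 1 member was higher in BM (Ikzf4), 1 was lower (Ikzf1) and 3 were within 2-fold, so 2 of 5 (40.0%) passed 2-fold where 22.1% of 12220 expressed genes did. These are 5 genes without replicates, too few to read the share as particular to the family. The median ratio of the 5 was -0.30, against 0.02 over all expressed genes.

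**Figure D1:**
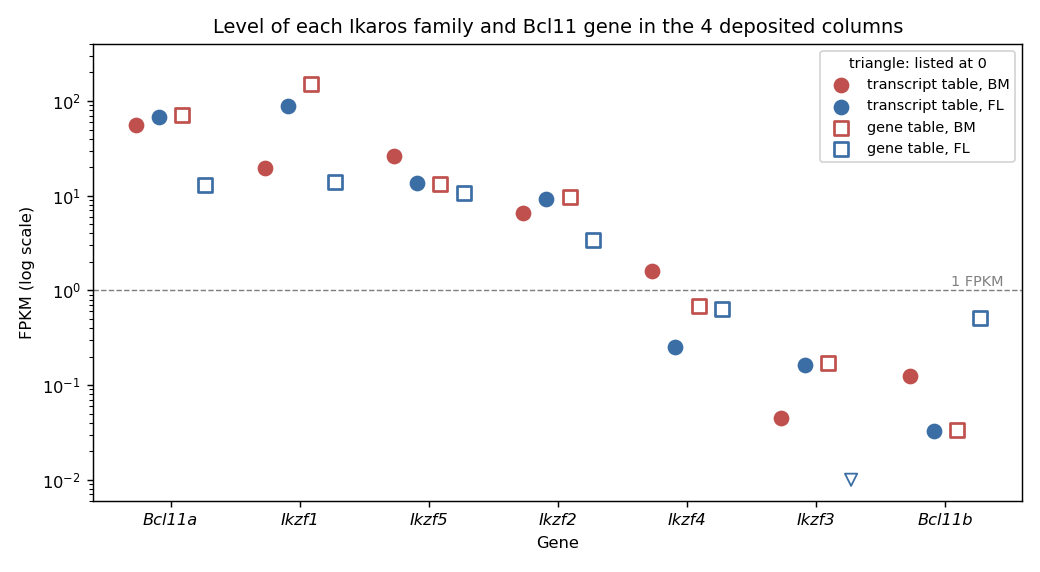
FPKM (log axis) of the 7 genes in the 4 deposited columns; each point is 1 column's value and a triangle marks a value listed at 0. Bcl11a, Ikzf1, Ikzf5 and Ikzf2 lie over 1 FPKM in all 4 columns, Ikzf3 and Bcl11b lie under it in all 4, and the gene table's BM squares sit near the transcript table's FL circles except for Ikzf1 and Ikzf4.

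Bcl11a, the silencer of embryonic globin genes, was at 55.9 FPKM in BM and 68.5 FPKM in FL of the transcript table, a ratio of -0.30. It ranked at percentile 87.3 of the expressed genes in BM and at percentile 88.0 in FL. Bcl11a was thus abundant in both columns and its sums were within 2-fold. The gene table had 71.0 FPKM in its BM column, which is 1.04 times the FL sum.

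The forms of Bcl11a were not all alike. Bcl11a-202 has 835 codons and all 6 finger matches, including the carboxy-terminal cluster that binds globin promoters in human cells; it was at 20.3 FPKM in BM and 18.7 FPKM in FL. Bcl11a-201 has 773 codons and 3 matches and was at 23.6 FPKM in BM and 26.7 FPKM in FL. Both long forms were within 2-fold. Summed, they were at 44.0 FPKM in BM and 45.4 FPKM in FL, a ratio of -0.05. The short coding form stood lower in BM. This form, Bcl11a-204, with 191 codons and 1 match, was at 9.84 FPKM in BM and 21.0 FPKM in FL, a ratio of -1.09. The other short form, Bcl11a-203, was at 5.51e-07 FPKM in BM and 1.67e-06 FPKM in FL, effectively 0. The mix of forms differed accordingly between the columns. The long forms took 78.6% of the Bcl11a FPKM in BM and 66.3% in FL. The retained-intron form Bcl11a-205 was at 1.61 FPKM in BM and 1.73 FPKM in FL. Bcl11a overlaps 4930538E20Rik on the opposite strand, which was at 2.24 FPKM in BM and 0.353 FPKM in FL of the gene table.

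Bcl11a-204 and the long form Bcl11a-201 both splice into the same last exon, shown here because the same bases are read in different frames. The last coding stretch of each is printed with its stop codon in capitals.
Bcl11a-204: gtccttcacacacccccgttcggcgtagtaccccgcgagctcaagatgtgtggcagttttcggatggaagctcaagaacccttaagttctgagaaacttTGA
Bcl11a-201: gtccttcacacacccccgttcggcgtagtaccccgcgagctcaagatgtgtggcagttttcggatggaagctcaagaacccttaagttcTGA
Before the stop codon Bcl11a-204 codes over 99 bases and Bcl11a-201 over 89 bases of this exon, and the 89 are identical. A read within it therefore fits both forms, and their separate FPKM rest on reads elsewhere and on the model that divides them.

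Ikzf1, which encodes Ikaros, was the member lower in BM, with 19.8 FPKM in BM and 89.4 FPKM in FL of the transcript table, a ratio of -2.17. It ranked at percentile 62.5 in BM and 91.3 in FL. Nearly all of that difference sat in a pair of truncated transcript models rather than in the complete coding models. Ikzf1-206 is a model of 242 nt with 18 codons whose 3′ end is tagged as not found; it was at 7.43e-15 FPKM in BM, effectively 0, and at 55.7 FPKM in FL. Ikzf1-205, of 446 nt and also open at its 3′ end, was at 1.75 FPKM in BM and 10.6 FPKM in FL. These models made up 8.81% of the Ikzf1 FPKM in BM and 74.1% in FL. Weighted by transcript length, which approximates the share of fragments, they made up 1.39% in BM and 17.5% in FL.

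The complete Ikzf1 forms lay much closer together. Ikzf1-204, with 515 codons and all 6 finger matches, was the most abundant of them at 7.95 FPKM in BM and 12.5 FPKM in FL, a ratio of -0.65. Ikzf1-203, with 535 codons and 6 matches, was at 0.944 FPKM in BM and 2.27 FPKM in FL. Ikzf1-201, which has 428 codons and lacks the first finger, was at 2.05 FPKM in BM and 4.34 FPKM in FL, a ratio of -1.05. Ikzf1-202 ends early, with 198 codons and 3 matches, and so lacks the carboxy-terminal dimerisation fingers; it was the 1 complete form with a higher value in BM, at 7.13 FPKM in BM and 4.01 FPKM in FL, a ratio of 0.82. Of the 6 listed Ikzf1 transcripts, 4 were lower in BM by 2-fold or more, 2 were within 2-fold and 0 were higher, where 38.0% of 26533 expressed linked transcripts differed by that much in either direction and 14.7% were lower.

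The exon that separates Ikzf1-203 and Ikzf1-204 from Ikzf1-201 and Ikzf1-202 is printed because the first DNA-binding finger lies in it, with that finger's cysteine and histidine codons in capitals. It is 261 bases of coding sequence on chromosome 11.
Ikzf1-204: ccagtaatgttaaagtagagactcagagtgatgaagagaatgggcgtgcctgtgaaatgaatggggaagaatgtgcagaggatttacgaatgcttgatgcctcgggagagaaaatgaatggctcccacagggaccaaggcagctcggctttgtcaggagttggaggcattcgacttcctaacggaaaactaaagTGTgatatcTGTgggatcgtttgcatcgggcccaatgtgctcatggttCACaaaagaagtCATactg
Forms with this exon summed to 8.89 FPKM in BM and 14.8 FPKM in FL, and complete forms without it to 9.18 FPKM in BM and 8.35 FPKM in FL, ratios of -0.73 and 0.13. Both sums were within 2-fold.

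Ikzf1-206 in turn has almost no coding sequence of its own. Its coding bases in full are shown to make that plain.
Ikzf1-206: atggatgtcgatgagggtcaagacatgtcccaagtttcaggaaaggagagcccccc
All 56 of these bases occur in each of the 6 Ikzf1 transcripts and the rest of the model is 5′ untranslated sequence. Its 242 nt are under the fragment size of about 300 nt named in the protocol. With models under 300 nt left out, Ikzf1 summed to 19.8 FPKM in BM and 33.8 FPKM in FL, a ratio of -0.77, and with all models open at the 3′ end left out to 18.1 FPKM in BM and 23.2 FPKM in FL, a ratio of -0.37. With transcripts weighted by length the ratio was -0.90. In each of these settings, all chosen after seeing the data, Ikzf1 was lower in BM but within 2-fold. Models of this kind were frequent among one-sided values: of 35 linked transcripts at 10 FPKM or more in FL and under 0.01 FPKM in BM, 24 were under 300 nt, as were 18 of 27 in the opposite direction. Of all linked transcripts, at any level, 4.24% were that short. The short share among transcripts at 10 FPKM or more was not taken, so these shares have unlike bases. Whether model length set the Ikzf1-206 value was not tested.

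**Figure D2:**
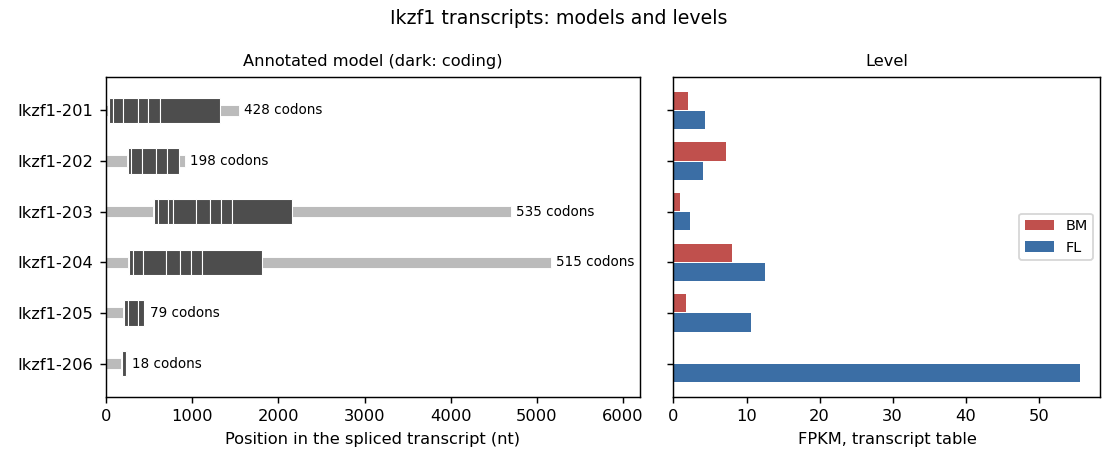
Left, the 6 listed Ikzf1 transcripts to scale in spliced nt, coding exons dark; right, FPKM of each in BM and FL of the transcript table. The longest bar, 55.7 FPKM in FL, belongs to the 242-nt model Ikzf1-206, whereas the complete forms range from 0.944 to 7.95 FPKM in BM and from 2.27 to 12.5 FPKM in FL.

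The gene table gave Ikzf1 a level that the listed transcripts do not add up to. Its BM column held 151 FPKM, 1.69 times the FL sum of the transcript table, where 8.41% of the 11077 genes had a ratio of 1.5 or more. Divided by the median ratio of the tables it was 144 FPKM, which is 54.7 FPKM over the transcript sum. With that value in place of the FL sum the ratio of Ikzf1 was -2.80. Such a ratio, here and below, sets a transcript sum in BM against a gene-level value. These are unlike measures, so it does not separate a stage difference from a difference between the tables. The labels do not say which models entered the gene-level values.

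Markers of several mature blood cells were lower in BM along with Ikzf1: 9 of 12 neutrophil and monocyte markers, 10 of 12 erythroid and all 9 macrophage markers, where 8.82% of all expressed genes were lower. Megakaryocyte markers went the other way: of 8 expressed, 6 were higher in BM and 0 lower, where 13.3% of all expressed genes were higher. B cell markers summed to 17.1 FPKM in BM and 22.5 FPKM in FL, nearly all of it Cd79b at 16.5 FPKM in BM and 18.7 FPKM in FL, with Ms4a1 listed at 0 in both columns and Pax5 and Ebf1 listed at 0 in BM and under 1 FPKM in FL. The part of these cells in the Ikzf1 difference was not tested, and in bulk samples fewer cells of a type and less RNA per cell cannot be told apart.

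Ikzf5, which encodes Pegasus, a family member that binds a different DNA motif, was at 26.3 FPKM in BM and 13.7 FPKM in FL, a ratio of 0.93 that lay just within 2-fold. All Ikzf5 values may include reads from Pstk over the shared stretch described above. The form with 419 codons and 5 finger matches, Ikzf5-201, was at 7.20 FPKM in BM and 5.67 FPKM in FL, a ratio of 0.34. Most of the excess was in shorter forms. Ikzf5-202, with 266 codons and 3 matches, was at 1.49 FPKM in BM and 0.871 FPKM in FL. Ikzf5-203, with 107 codons and 1 match, was at 11.7 FPKM in BM and 6.21 FPKM in FL. Ikzf5-205 and Ikzf5-204, both open at the 3′ end, were at 2.81 and 3.06 FPKM in BM against 0.0305 and 0.908 FPKM in FL. Without the open models Ikzf5 had a ratio of 0.67, and with the gene table's BM column, scaled to 12.6 FPKM, as the fetal value it was 1.11, past 2-fold.

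**Figure D3:**
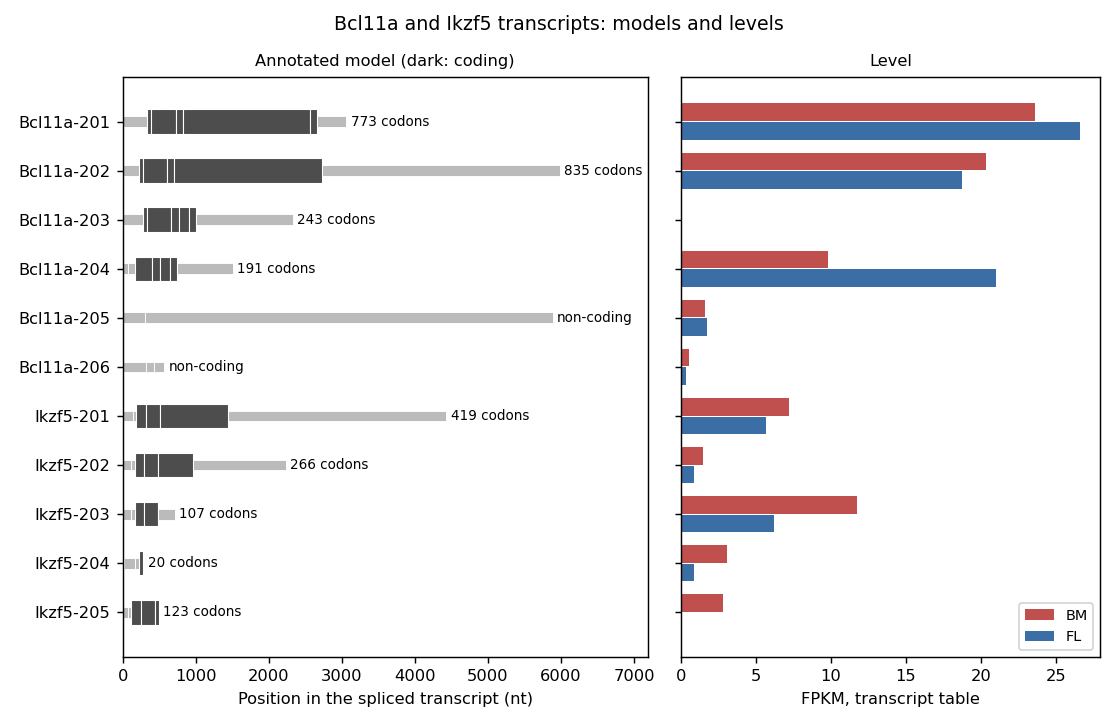
Models to scale in spliced nt (left) and FPKM in BM and FL of the transcript table (right) for the listed Bcl11a and Ikzf5 transcripts. The 2 long Bcl11a forms have nearly equal bars, the short form Bcl11a-204 is at 9.84 FPKM in BM and 21.0 FPKM in FL, and Ikzf5-203 and the open Ikzf5 models have longer bars in BM than in FL.

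Ikzf2, which encodes Helios, a factor of HSCs and regulatory T cells, was at 6.52 FPKM in BM and 9.34 FPKM in FL, a ratio of -0.52. Ikzf2-201, its form with 526 codons, is the 1 listed transcript of the 9 annotated, so isoforms could not be compared. The gene table's BM value of 9.74 FPKM was 1.04 times the FL value, as for most genes. In the transcript table Ikzf2 lay within 2-fold under each of the 9 other processing choices.

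Ikzf4, which encodes Eos, a cofactor of regulatory T cells, was the member higher in BM, at 1.59 FPKM in BM and 0.255 FPKM in FL, a ratio of 2.25. It is a low-level gene: BM ranked at percentile 9.19 of the expressed genes. Ikzf4-201, with 586 codons, was the 1 listed transcript of the 8 annotated, and the gene table gave 0.684 FPKM in BM and 0.631 FPKM in FL, so its BM value was 2.68 times the FL value of the transcript table. With that gene-table value, scaled, as the fetal level the ratio was 1.22, and with a pseudocount of 1 FPKM it was 1.04, both still past 2-fold. The depth behind these low values is unknown.

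Ikzf3 and Bcl11b, the Aiolos gene of B cells and the T cell commitment gene, were near 0. Ikzf3 was at 0.0445 FPKM in BM and 0.163 FPKM in FL, all of it in Ikzf3-201, with its other 3 transcripts listed at 0. Bcl11b summed to 0.123 FPKM in BM and 0.0327 FPKM in FL. In the gene table Ikzf3 was at 0.170 FPKM in BM and listed at 0 in FL, and Bcl11b was at 0.0339 FPKM in BM and 0.511 FPKM in FL. No difference is read from such levels. T and NK cell markers were mostly absent as well: 6 of 11 were listed at 0 in BM and 6 in FL, including Cd3d in both, while Nkg7 was at 21.0 FPKM in BM and 4.31 FPKM in FL.

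By level, the order in BM was Bcl11a, Ikzf5, Ikzf1, Ikzf2, Ikzf4, Bcl11b and Ikzf3, and in FL it was Ikzf1, Bcl11a, Ikzf5, Ikzf2, Ikzf4, Ikzf3 and Bcl11b. Ikzf1 came after Bcl11a and Ikzf5 in BM and before both in FL, and without models under 300 nt Ikzf1 came second in FL, at 33.8 FPKM. Which neighbours differ beyond the spread of libraries could not be assessed.

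**Figure D4:**
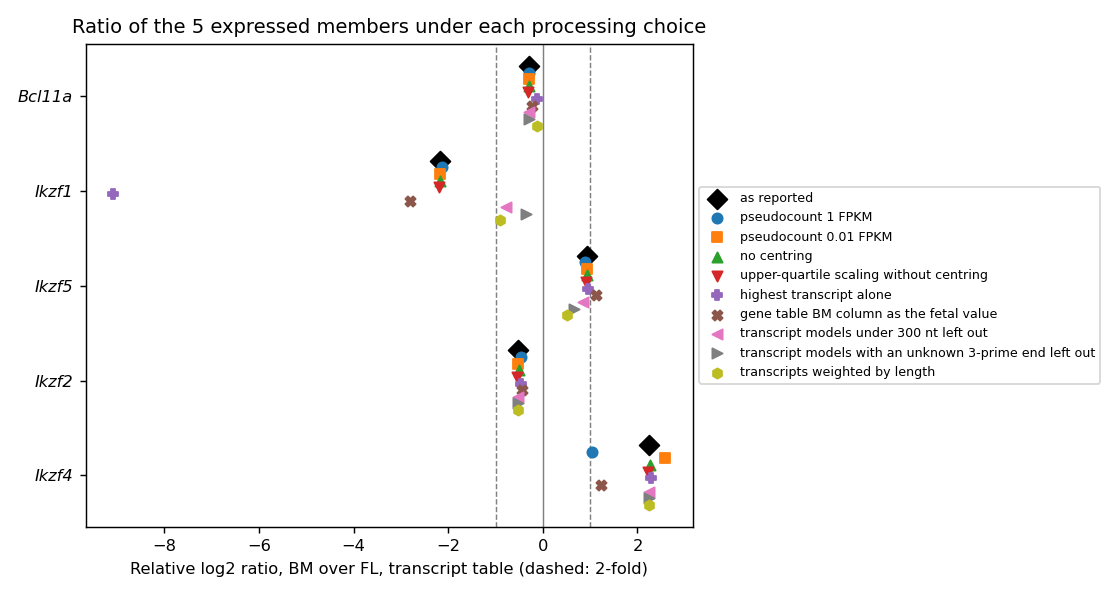
Relative log2 ratio of the 5 expressed members in the transcript table, as reported (black diamonds) and under 9 other processing choices; dashed lines mark 2-fold. Ikzf1 spans -9.08 to -0.37, Ikzf4 stays over 1 (1.04 to 2.59), Ikzf5 lies near 1 (0.52 to 1.11), and Bcl11a and Ikzf2 stay within 2-fold. The Ikzf1 value of -9.08 comes from its highest transcript alone, the 242-nt model Ikzf1-206.

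In the gene table the contrast of headers gave another picture, with ratios from which a median of 0.24 was taken off. Ikzf1 was at 151 FPKM in BM and 13.9 FPKM in FL (ratio 3.19), Bcl11a at 71.0 FPKM in BM and 13.1 FPKM in FL (2.19), and Ikzf2 at 9.74 FPKM in BM and 3.39 FPKM in FL (1.26). These 3 of 4 expressed members (75.0%) were higher in BM, where 36.0% of 13834 expressed genes differed by 2-fold or more and 12.3% were higher; Ikzf5 was at 13.2 FPKM in BM and 10.7 FPKM in FL (0.06). Since that BM column is close to the transcript table's FL column, these ratios are not read as adult against fetal HSCs. Neither gene-table column was near the transcript table's BM column for Lin28b or the macrophage markers. Lin28b was at 9.65 FPKM in BM and 8.33 FPKM in FL, against 0.304 FPKM in BM of the transcript table. Macrophage markers summed to 261 FPKM in BM and 618 FPKM in FL, against 6.98 FPKM in BM of the transcript table. The gene table's FL column carried far more endothelial RNA: the 9 endothelial markers, all lower in BM (23.6% of expressed genes were), summed to 104 FPKM in BM and 2045 FPKM in FL. In the same contrast 9 of 12 erythroid and 10 of 12 neutrophil and monocyte markers were higher. Of the 10 HSC markers 5 were higher there and 3 were lower. The higher ones included Hlf at 74.9 FPKM in BM and 7.85 FPKM in FL and Slamf1 at 14.9 FPKM in BM and 0.652 FPKM in FL. The lower ones were Procr, Fgd5 and Hoxb5. Procr was at 54.0 FPKM in BM and 121 FPKM in FL, and Fgd5 at 21.8 FPKM in BM and 59.4 FPKM in FL. Hoxb5 was at 1.63 FPKM in BM and 4.12 FPKM in FL. The part of these cells in the gene-table ratios was not tested.

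Partners of the 7 factors were examined next, again in the transcript table. The 14 NuRD subunit genes were all expressed and all within 2-fold, with a median ratio of -0.32, counting Rbbp4, whose sum is incomplete. Rbbp7, which encodes a histone chaperone subunit, was at 158 FPKM in BM and 202 FPKM in FL. Chd4, which encodes the remodelling ATPase bound by Ikaros, was at 151 FPKM in both columns. Cdk2ap1 was at 121 FPKM in BM and 177 FPKM in FL, and Mbd3, which encodes a subunit of the methyl-binding domain family, at 110 FPKM in BM and 166 FPKM in FL. The Rbbp4 sum of 6.41 FPKM in BM and 10.2 FPKM in FL misses most of the gene, since the gene table had 230 FPKM in BM. With that column as the fetal value Rbbp4 would be lower (-5.02), but the incomplete sum makes this outcome uninformative about stage. Within the gene table its ratio was -0.37.

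Of 13 BAF subunit genes, 2 were higher in BM, 0 were lower and 11 were within 2-fold (median -0.20). These 2 of 13 compare with the 13.3% of all expressed genes that were higher. The higher members were Smarca2, which encodes an ATPase of the complex, at 50.6 FPKM in BM and 16.5 FPKM in FL, and Arid1b, which encodes a DNA-binding subunit, at 48.3 FPKM in BM and 19.6 FPKM in FL. Both were within 2-fold (0.47 and 0.65) with the gene table's BM column as the fetal value. The most abundant, Dpf2 and Smarce1, were at 122 and 84.0 FPKM in BM and at 104 and 96.3 FPKM in FL, followed by Smarcd2 and Actl6a at 68.2 and 57.8 FPKM in BM and 82.1 and 91.0 FPKM in FL. All 11 other corepressor genes were within 2-fold (median -0.18), with Ctbp1, a partner of both Ikaros and Bcl11a proteins, at 113 FPKM in BM and 144 FPKM in FL and the DNA methyltransferase gene Dnmt1 at 93.2 FPKM in BM and 131 FPKM in FL. Sin3b was at 79.9 FPKM in BM and 88.4 FPKM in FL and Ncor1 at 78.8 FPKM in BM and 56.2 FPKM in FL.

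Of 11 genes that modify or degrade Ikaros proteins, 10 were expressed and all 10 were within 2-fold (median -0.22). That count includes Rbx1 and Csnk2a2, whose sums are incomplete. Crbn, the substrate receptor through which immunomodulatory drugs lead to Ikaros degradation in human cells, was at 17.4 FPKM in BM and 12.0 FPKM in FL. The phosphatase genes Ppp1ca and Ppp1cc were at 282 and 138 FPKM in BM against 419 and 184 FPKM in FL. Csnk2b and Csnk2a1, which encode subunits of a kinase that phosphorylates Ikaros, were at 74.8 and 61.0 FPKM in BM and at 105 and 60.7 FPKM in FL. Sums of Ddb1, Rbx1 and Csnk2a2 were too low to use, since the gene table's BM value was 4.63 times the FL sum for Csnk2a2 and more for the others. With that column as the fetal value these 3 would be lower, but the incomplete sums make this outcome uninformative about stage. Within the gene table their ratios, after the median of 0.24 was taken off, were 0.48 (Ddb1), -0.20 (Rbx1) and -0.03 (Csnk2a2). Before that centring Rbx1 was slightly higher in BM, at 126 FPKM against 122 FPKM in FL. The same held for Csnk2a2, at 23.0 FPKM in BM and 19.9 FPKM in FL.

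Regulators of globin switching, a list of 12 that includes Bcl11a itself, held genes past 2-fold in both directions. Of 11 with values, 1 was higher in BM, 4 were lower and 6 were within 2-fold (median -0.10), where 13.3% of all expressed genes were higher and 8.82% lower. Sox6, which encodes a partner of Bcl11a in globin silencing, was higher, at 14.9 FPKM in BM and 1.36 FPKM in FL (3.35). The lower genes were Klf1, an activator gene of Bcl11a, at 7.82 FPKM in BM and 82.8 FPKM in FL; Lin28b, whose product limits BCL11A translation in human erythroid cells, at 0.304 FPKM in BM and 8.51 FPKM in FL; Gata1, an erythroid factor gene, at 24.4 FPKM in BM and 51.4 FPKM in FL; and Hic2, a repressor gene of BCL11A in human cells, at 1.16 FPKM in BM and 2.55 FPKM in FL. Those nearest to 0 included Ldb1, a looping factor gene, at 170 FPKM in BM and 172 FPKM in FL, and Zbtb7a, which encodes the other main globin repressor, at 30.3 FPKM in BM and 32.4 FPKM in FL. Myb was at 127 FPKM in BM and 106 FPKM in FL. With the gene table's BM column as the fetal value the same 5 genes passed 2-fold, Gata1 and Hic2 only just (both -1.01). That column is close to the FL sums, so this is no independent check.

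The embryonic globin genes, which Bcl11a represses in mouse, were low in BM, and the adult ones were low as well. Hbb-y was at 0.0813 FPKM in BM and 24.4 FPKM in FL, Hba-x at 0.143 FPKM in BM and 3.65 FPKM in FL, and Hbb-bh1 was listed at 0 in BM and at 0.513 FPKM in FL. Of the adult genes, Hbb-bt was at 6.04 FPKM in BM and 207 FPKM in FL, Hbb-bs at 3.75 FPKM in BM and 150 FPKM in FL, Hba-a2 at 1.93 FPKM in BM and 185 FPKM in FL, and Hba-a1 at 0.0901 FPKM in BM and 60.8 FPKM in FL. All 6 expressed globin genes were thus lower, with a median of -5.91, together with 10 of 12 erythroid markers, a list that holds 3 of the same globin genes and Klf1 and Gata1. Copies of these genes are near-identical, so their separate values are uncertain, and the tables differed by more than 2-fold for several (Hba-a2 had 10.1 FPKM in the gene table's BM column). The part of erythroid cells in these values was not tested. Hbb-bh2 was listed at 0 in both columns.

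Lymphoid genes known as targets or partners of Ikaros were few. Of 18, 7 were expressed, 3 of them lower in BM, 0 higher and 4 within 2-fold (median -0.91), where 8.82% of all expressed genes were lower. Among the lower genes, Satb1, a chromatin organiser gene of lymphoid progenitors, was at 2.05 FPKM in BM and 8.06 FPKM in FL, and Ighm, the immunoglobulin heavy chain gene, at 0.394 FPKM in BM and 2.92 FPKM in FL. The most abundant were Cd79b, Flt3, a receptor gene of lymphoid-primed progenitors, at 10.3 FPKM in BM and 19.3 FPKM in FL, and Notch1 at 8.35 FPKM in BM and 14.0 FPKM in FL. Il7r, Rag2, Pax5, Ebf1, Igll1 and Il2ra were listed at 0 in BM and reached at most 0.191 FPKM in FL, Dntt was at 0.120 FPKM in BM and listed at 0 in FL, and Ptcra was listed at 0 in both.

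**Figure D5:**
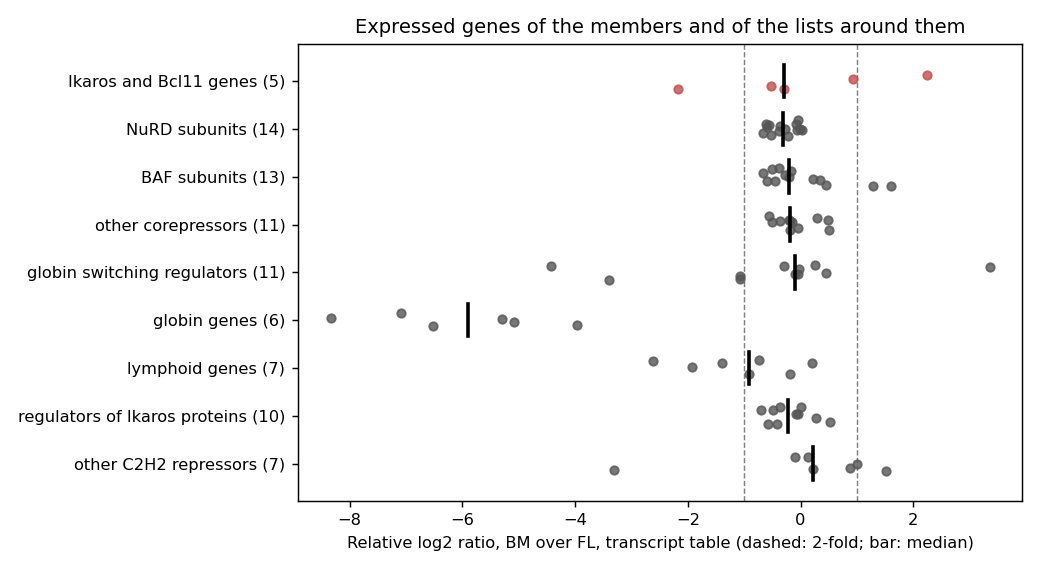
Relative log2 ratio, BM over FL, of each expressed gene in the transcript table, for the members and 8 lists (number of genes in brackets; bar, median; dashed, 2-fold). NuRD, other corepressor and Ikaros regulator genes all lie within 2-fold, whereas the 6 globin genes lie between -8.33 and -3.96. The points of Rbbp4, Rbx1 and Csnk2a2 rest on incomplete transcript sums.

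Other C2H2 repressor genes of blood cells lay on both sides as well. Of 10, 7 were expressed, with 2 higher in BM, 1 lower and 4 within 2-fold (median 0.22), where 13.3% of all expressed genes were higher and 8.82% lower. Gfi1, a repressor gene of progenitors, was at 3.37 FPKM in BM and 34.2 FPKM in FL, and its relative Gfi1b at 106 FPKM in BM and 90.4 FPKM in FL. Zbtb16, which encodes PLZF, was at 5.57 FPKM in BM and 1.87 FPKM in FL, and Zeb2 at 31.6 FPKM in BM and 15.6 FPKM in FL, a ratio of 1.01 that was 0.85 with the gene table's BM column as the fetal value. Zeb1 was at 19.7 FPKM in BM and 10.6 FPKM in FL, and Sall4 was listed at 0 in both.

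The genes nearest to Bcl11a and Ikzf1, the 2 members with the highest mean of BM and FL in the transcript table, were found by Euclidean distance of log2 values over the 4 columns, among 26967 genes. Nearest to Bcl11a were Rpia (0.25), Nup210 (0.26) and Dnph1 (0.31), with Nup210 at 60.2 FPKM in BM and 61.4 FPKM in FL of the transcript table. Nearest to Ikzf1 were Cpox (0.76), Aktip (1.04) and Asns (1.14), with Cpox at 18.2 FPKM in BM and 111 FPKM in FL. These distances rest on 4 columns, of which 2 are close to copies of each other.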

How the data were processed

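The authors deposited FPKM values in a gene table (37820 genes) and a transcript table (87641 transcripts), each with 1 column headed FL and 1 headed BM. The submitters' processing notes name TopHat, Cufflinks, featureCounts, Subread, edgeR and build mm9, without roles or versions; the depth is unknown. The molecule is labelled genomic DNA, in conflict with a protocol for RNA. The BM columns were assigned to the adult group by header, the FL columns by header and protocol text alone. Each was read as the authors' mean, with no SD, n or test.

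Symbols, transcript lengths and coding exons came from GENCODE M21 by identifier; its build differs from mm9, so no coordinates are printed. It linked 76507 transcripts (87.3%), and unlinked ones held 10.9% of the FPKM in BM and 10.4% in FL. Protein sequences were not used here. Genes at 1 FPKM or more in either column were called expressed; the pseudocount was 0.1 FPKM and the call 2-fold. Ratios were checked on simulated data. Python 3.11.15, numpy 2.4.6, pandas 2.3.3 and matplotlib 3.10.9 were used. Members and lists were chosen with earlier results of these data known. Named were all members and their transcripts at 1 FPKM or more, the 4 highest genes of each list, those past 2-fold and those listed at 0; markers and other genes named beside them were chosen after their values were seen. The values of 1 gene of the lymphoid list are not reported here.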

Additional observations from a re-analysis of the deposited data

How the results depend on the processing

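Changing the pseudocount to 1 or 0.01 FPKM, leaving out the centring or scaling by the upper quartile changed no call of an expressed member in either table. Ikzf1 lost its 2-fold call in the transcript table without models under 300 nt (-0.77) and without models open at the 3′ end (-0.37). It also lost that call with weighting by length (-0.90). These alternatives were chosen after seeing the data, and each left 1 member, Ikzf4, past 2-fold in place of 2. A filter at 5 FPKM also left 1 member, but there it was Ikzf1, since Ikzf4 was under 5 FPKM in both columns. Ikzf5 passed 2-fold (1.11) with the gene table's BM column as the fetal value. Without a filter on low values, 5 members passed 2-fold in the gene table, and 1891 genes were lower in the transcript table and 5936 in the gene table. At 5 FPKM or more, 883 genes were higher and 616 lower in the transcript table and 2018 lower in the gene table. No paired analysis was possible because the columns carry no replicate numbers, and for the same reason no replicate could be left out. Depth is unknown, so low values such as those of Ikzf3, Ikzf4 and Bcl11b have no stated precision.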
